A study of Mus musculus with 2 samples.

Results

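Lung epithelial cells were selected on their RNA in droplet libraries of mouse lung, and 93 of 29837 cells (0.312%) were counted as such. A member was chosen by having at least 3 of the 7 epithelial genes Epcam, Krt8, Krt18, Cldn3, Cldn7, Cdh1 and Lmo7, and 0 unique molecular identifiers (UMIs, each standing for 1 captured RNA molecule) of Cd3e, Cd79a, Csf1r, Mertk and Ptprb. The last 5 genes mark T cells, B cells, monocytes, macrophages and endothelium. Cells also had to hold at least 500 gene UMIs, at least 200 genes and at most 20% mitochondrial UMIs. The selection used measured RNA, so the members' levels of these 12 genes are a description and support nothing else.

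The study asked how loss of the transcriptional repressor GFI1 changes the immune cells of the lung. One library came from lungs labelled GFI1 KO (germline deletion of Gfi1 in all cells) and 1 from lungs labelled GFI1 WT, both on the C57BL/6J background from adult mice. Perfused lungs were digested with collagenase IV and DNase I, red cells were lysed, and live cells were sorted before loading on a 10x 3′ v3.1 chip with 18 antibody tags. The methods describe more libraries per genotype, which were not analysed here, and the number of mice per library is not given in the sources used here.

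With 1 library per genotype there was no replicate, so no test was run and genotype cannot be told apart from animal, digestion, sort and library. All intervals below are 95% intervals and cover counting error only. In the GFI1 KO library, 10495 of 10700 cells passed the filters (116825535 gene UMIs over all cells) and 23 were members. In the GFI1 WT library, 19342 of 19515 cells passed (162599284 gene UMIs) and 70 were members. The median member had 11595 gene UMIs in the KO library (range 533 to 48607) and 17490.5 in the WT library (range 581 to 63397). Gfi1 itself gave 1 UMI in the 23 members labelled GFI1 KO and 0 in the 70 labelled GFI1 WT, so its RNA in these cells does not check the labels.

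The lung surface is lined by a conducting airway epithelium and by the thin epithelium of the alveoli. In the airway, club cells secrete uteroglobin (Scgb1a1) and detoxify inhaled compounds, goblet-type cells make gel-forming mucins, and ciliated cells, which need the transcription factor Foxj1, move the mucus. In the alveoli, type 2 cells make surfactant, of which surfactant protein C (Sftpc) is the most specific component, and flat type 1 cells exchange gas. These cells also respond to interleukin-17 and other cytokines by secreting antimicrobial proteins and neutrophil attractants.

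Members made up 0.219% (Clopper-Pearson interval 0.139% to 0.329%) of the filtered cells with the KO label and 0.362% (0.282% to 0.457%) of those with the WT label. The KO minus WT difference was −0.143 percentage points (−0.267 to −0.00733). The interval held 0 with at least 4 of the 7 genes (−0.0946 points, −0.210 to 0.0329), without the members with RNA of the leukocyte gene Ptprc (−0.121, −0.242 to 0.0104) and without those that carried the CD45 antibody tag (−0.132, −0.253 to 0.000825). The share depends on how many epithelial cells survived digestion and on how many leukocytes were in the lung, which these libraries cannot tell apart. Of the 7 genes of the rule, Krt8 was detected in 84 of the 93 members, Epcam in 77, Cldn7 in 76, Cdh1 in 73, Cldn3 in 72, Lmo7 in 71 and Krt18 in 70. All 7 were found in 42 members, and 15 members had only 3. Just inside the limit, 7 of these 15 cells held Wfdc2, an epithelial secretory protein that the rule did not use, and 3 held the leukocyte gene Ptprc. Just outside it, among 54 cells with 2 of the 7 genes, 7 held Wfdc2 and 34 held Ptprc. Over all members, Wfdc2 was found in 74 of 93 cells with a median of 44 UMIs, against 0.827% of 3626 B cells. The condition on absent genes removed 18 cells under the KO label and 75 under the WT label that had 3 or more of the 7 genes.

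A group of 10 members stood apart before any comparison. The libraries shared 74 cell barcodes. On 12 of these, both libraries held under 1000 gene UMIs (KO 533 to 862, WT 552 to 937), and 21 of these 24 records had no antibody tag UMI. The other 62 barcodes held at least 1822 gene UMIs and 109 tag UMIs in either library and included no member. The 10 members, 5 of each label, lay on 9 of the 12 low barcodes, and 1 barcode was a member in both libraries (841 and 937 gene UMIs). These 10 members had 0 UMIs of Wfdc2, Sftpc and Foxj1. Lgals2 was found in 8 of them, Gpx2 in 7, Olfm4, Defa24 and Lgals4 in 4 each, and Spink4 in 2, all known from intestinal epithelium. Among the 83 other members, Gpx2 was found in 48, Lgals4 in 5, Lgals2 in 1, and Olfm4, Defa24 and Spink4 in 0. These genes were chosen after their values were seen, and what the shared barcodes are was not tested. Leaving these records out gave 18 KO members (0.172%) and 65 WT members (0.336%), and the difference became −0.165 points (−0.280 to −0.0390).

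Free secretory RNA was abundant and differed between the libraries. B cells, which do not make uteroglobin, served as the measure of it. At least 1 Scgb1a1 UMI was found in 8.80% of 864 B cells under the KO label (median depth 3974.5 UMIs, highest count 7) and in 45.2% of 2762 B cells under the WT label (median depth 4192.5, highest count 25). Sftpc was found in 0.926% and 1.05% of them, and Foxj1 in 0.116% and 0.0724%. A member was therefore assigned to a gene only when its count exceeded the 99th percentile of the B cells of its library, which was 2 and 5 UMIs for Scgb1a1, 0 and 1 for Sftpc, and 0 in both for Foxj1 (KO label first). A stricter limit was 10 times that count and at least 2 UMIs. For Sftpc this meant above 1 UMI under the KO label and above 10 under the WT label. The 23 members under the KO label held 88.2% of the 150000 Scgb1a1 UMIs of their whole library, and the 70 under the WT label held 81.3% of 721842. For Sftpc the members' share was 87.8% under the KO label but 29.2% under the WT label, so most Sftpc RNA of the WT library lay in cells that were not members.

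**Figure D1:**
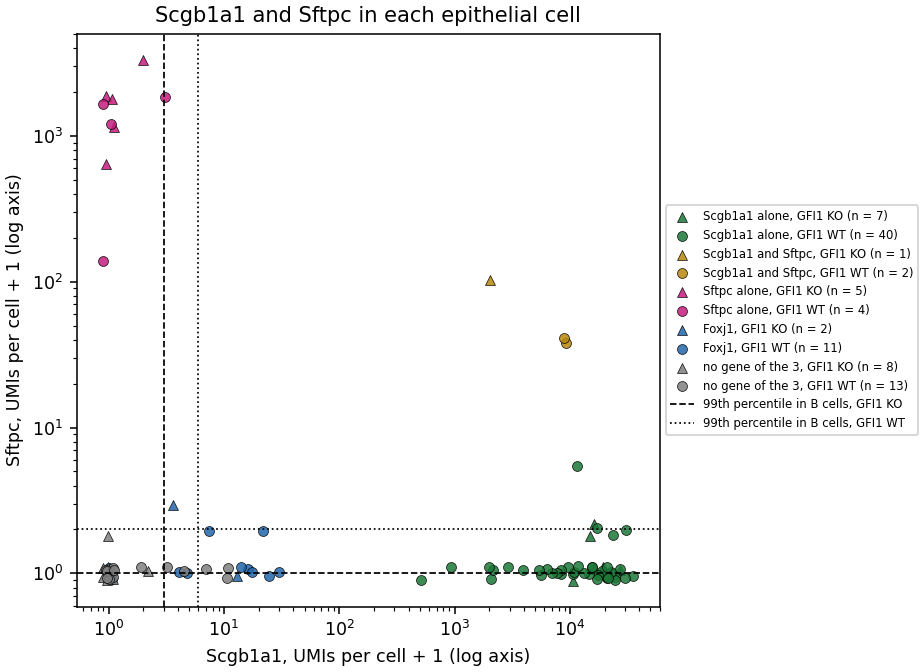
Scgb1a1 (x axis) and Sftpc (y axis) in each of the 93 cells, as UMIs per cell plus 1 on log axes, with points shifted slightly so that overlapping cells can be seen. Colour gives the class under the 10-fold limits, triangles the GFI1 KO label, circles the GFI1 WT label and lines the 99th percentile in B cells. No cell lies between 26 and 467 Scgb1a1 UMIs, and 3 cells lie above both 10-fold limits.

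The cells fell into airway secretory, alveolar and ciliated classes of unequal size under the 2 labels. Scgb1a1 alone was above its limit in 5 of 23 members under the KO label (21.7%, interval 7.46% to 43.7%) and in 42 of 70 under the WT label (60.0%, 47.6% to 71.5%). That difference was −38.3 points (−56.6 to −13.04). The Sftpc limits differed by label, so a cell with 1 Sftpc UMI left this class under the KO label only. Above the limits of both genes were 3 of 23 and 3 of 70. With the 10-fold limits Scgb1a1 alone counted 7 and 40 cells, and the difference was −26.7 points (−47.6 to −1.03). Without the shared barcodes, still by the 10-fold limits, it was −22.6 points (−47.3 to 5.81), an interval that holds 0. Sftpc alone was above its limit in 6 of 23 (26.1%) and 4 of 70 (5.71%), a difference of 20.4 points (2.49 to 43.1). Its 10-fold limits gave 5 and 4 cells and 16.02 points (−0.479 to 38.4), which holds 0, and without the shared barcodes 21.6 points (1.49 to 47.7), which does not. Foxj1 marked 2 of 23 (8.70%) and 11 of 70 (15.7%), a difference of −7.02 points (−20.1 to 13.8) that was not detectable at this number of cells. Classes of the same library compete for the same members, so a larger Sftpc share and a smaller Scgb1a1 share are not separate observations. The cells below are described by the 10-fold limits.

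**Figure D2:**
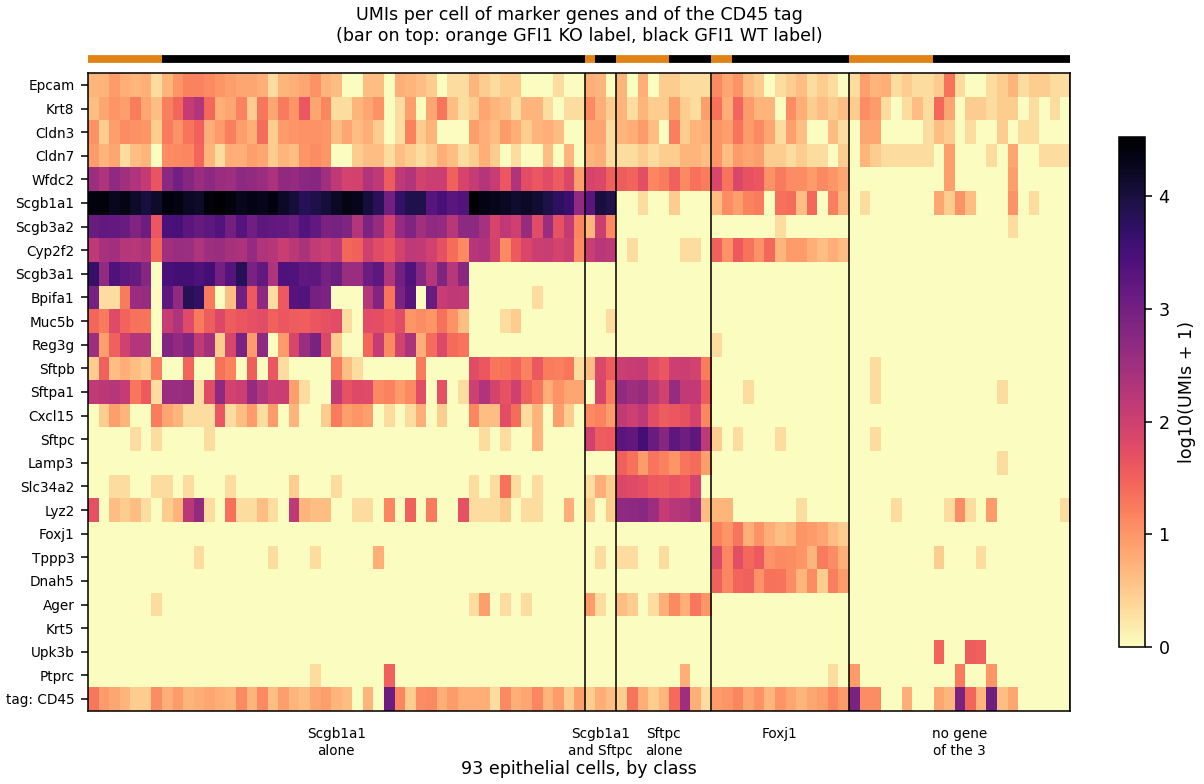
UMIs per cell of marker genes and of the CD45 antibody tag (lines) in the 93 epithelial cells (columns, by class), coloured by log10(UMIs + 1). The bar on top is orange for the GFI1 KO label and black for the GFI1 WT label. Sftpc is highest in the 9 cells with Sftpc alone, Sftpb is found there and in many Scgb1a1 cells, and Foxj1, Tppp3 and Dnah5 mark the 13 Foxj1 cells.

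Uteroglobin dominated the RNA of the secretory cells. No member had between 26 and 467 Scgb1a1 UMIs, and the 50 cells above that gap (8 under the KO label, 42 under the WT label) reached 33702. Scgb1a1 took 4.38% to 78.6% of all gene UMIs of such a cell, with a median of 45.0%. Over the 47 of them that were not above the 10-fold Sftpc limit, all 10 club cell markers of the fixed list were detected in at least 50% of the cells, and these 10 genes summed to 633453 CPM (counts per 1000000 UMIs, here without ribosomal, mitochondrial and Gm- genes). Scgb1a1, which chose these cells, is 1 of the 10 and made up 520869 of that sum. Of the 19 enzymes of xenobiotic metabolism all were detected, led by Cyp2f2, the cytochrome that activates naphthalene in club cells, at 5412 CPM. Of the 12 ciliated markers 7 were detected in these 47 cells, none in 50% of them (summed level 24.6 CPM), and Foxj1, Rsph1, Hydin, Dnah5 and Tekt1 were at 0. Of the 7 basal markers Krt15 (43.2 CPM, 49 of its 58 UMIs in 1 cell) and Aqp3 were detected, and Krt5, Krt14, Trp63, Dapl1 and Ngfr were at 0, as was Foxi1 of ionocytes.

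The 50 secretory cells held 2 sets that differed by Scgb3a1, another secretoglobin, a split chosen after the values were seen. Scgb3a1 was at 0 UMIs in 15 cells (2 under the KO label, 13 under the WT label) and lay between 171 and 6688 UMIs in the other 35 (6 and 29). Among the 35, the mucin Muc5b was found in 34 with up to 217 UMIs, against 3 of the 15 with up to 2. The airway lipid-binding proteins Bpifa1 and Bpifb1 were found in 30 and 34 of the 35 and in 1 and 1 of the 15. The bactericidal lectin Reg3g was found in 32 against 0, the trefoil peptide Tff2 in 34 against 1, the goblet cell protein Clca1 in 24 against 0, and the disulfide isomerase Agr2 of mucus cells in 28 against 0.

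Other secretory genes were shared by both sets. The detoxifying enzyme Cyp2f2 had a median of 157 UMIs in the 35 cells (12 to 421) and 103 in the 15 (11 to 211). The carbonyl reductase Cbr2 had medians of 120 and 124. Scgb3a2, also a secretoglobin, was found in every one of the 50 cells, with a median of 1158 (84 to 3031) in the 35 and 98 (4 to 510) in the 15. Sftpb, a surfactant protein of alveolar and club cells, went the other way, with a median of 0 (up to 40) in the 35 and 19 (1 to 67) in the 15. By label, Sftpb was found in 6 of the 6 KO cells with Scgb3a1 (2 to 32 UMIs) and in 10 of the 29 WT cells (0 to 40), so the ranges overlapped. The 15 cells were shallower (median 20236 against 33887 gene UMIs). These counts were not corrected for depth, and its part in the split was not tested.

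**Figure D3:**
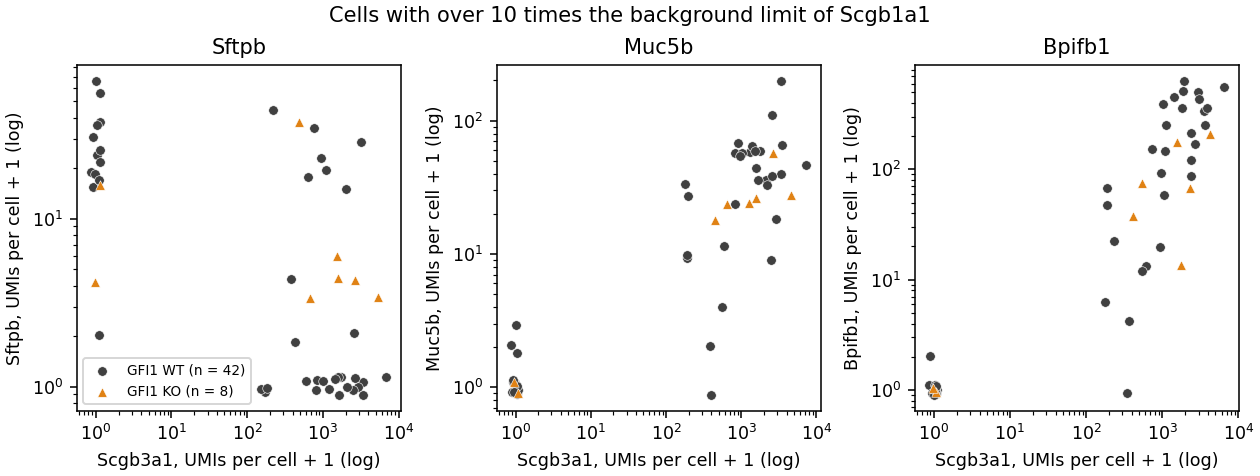
Counts of Sftpb, Muc5b and Bpifb1 (y axes) against Scgb3a1 (x axes) in the 50 cells over the 10-fold Scgb1a1 limit, in UMIs per cell plus 1 on log axes, with points shifted slightly so that overlapping cells can be seen. Triangles are the GFI1 KO label and circles the GFI1 WT label. The 15 cells at 0 Scgb3a1 lie apart from the 35 with at least 171 UMIs, and both labels occur in both sets.

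The surfactant cells were few but complete. In 9 cells, Sftpc alone was above the 10-fold limits. Sftpc counted 3317, 1895, 1632, 1278 and 610 UMIs in the 5 cells under the KO label and 1739, 1656, 1102 and 152 in the 4 under the WT label, so the labels overlapped. All 12 alveolar type 2 markers were detected (Sftpc, which chose the cells, is 1 of them), 11 of them in at least 50% of the cells. Sftpb ranged from 16 to 124 UMIs, Lamp3, a protein of the lamellar bodies that store surfactant, from 7 to 32, and the phosphate carrier Slc34a2 from 0 to 81. All 13 genes of the lipid synthesis list were detected, led by the desaturase Scd1 with 9 to 61 UMIs. The MHC class II chaperone Cd74 had 12 to 94 UMIs in these 9 cells, the alarmin Il33 1 to 10, and the lung chemokine Cxcl15 13 to 146. Scgb1a1 was at 0 in 7 of the 9 cells and at most 2 in the rest. Of the 12 type 1 markers 9 were detected in these cells, 7 of them in at least 50% of the cells, with a summed level of 3013 CPM. Cldn18 was found in 9 of 9 cells, Ager (up to 18 UMIs), Aqp5, Emp2 and Clic3 in 8, and Gprc5a in 7, while Pdpn, Rtkn2 and Igfbp2 were at 0.

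Within the surfactant cells some secreted products were higher under the KO label. Lyz2, the lysozyme of type 2 and myeloid cells, counted 534, 475, 506, 349 and 126 UMIs in the 5 cells under the KO label and 170, 285, 202 and 3 in the 4 under the WT label. The ranges overlapped, and the ratio of summed levels over the cells with Sftpc alone by the first limits (6 and 4 cells) was 2.79 (2.55 to 3.05). In B cells Lyz2 stood at 349 and 111 CPM, so it was higher under the KO label outside the epithelium too. Over the same cells the ratio was 2.38 (2.004 to 2.84) for Cxcl15 and 0.231 (0.108 to 0.455) for Ager. Ager had 0, 3, 2, 1 and 5 UMIs in the 5 cells and 12, 18, 5 and 9 in the 4. The genes that were lowest under the KO label, Il1b, Zfp36 and Cxcl2, were at 0 there and counted 69, 55 and 40 UMIs under the WT label. The cell with 321 UMIs of the CD45 tag held 68 of the 69 Il1b and 38 of the 40 Cxcl2 UMIs, and all 20 UMIs of Tyrobp, 9 of Csf3r and 5 of Ptprc, which are leukocyte genes. Zfp36 had 32 of its 55 UMIs in another cell. The part of leukocyte RNA in these differences was not tested.

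Also, 3 cells were above the 10-fold limits of both Scgb1a1 and Sftpc. Under the KO label, 1 cell had 1827 Scgb1a1 and 91 Sftpc UMIs. Under the WT label, the counts were 10047 and 34 in 1 cell and 7982 and 37 in the other. Scgb3a1, Bpifa1 and Lamp3 were at 0 in all 3. Whether these are single cells or pairs of cells in 1 droplet was not tested beyond the doublet caller, which marked 1 of the 93 members.

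The ciliated cells carried a full cilium programme. In the 13 Foxj1 cells (2 under the KO label, 11 under the WT label), Foxj1 counted 9 and 14 UMIs in the 2 KO cells and 2 to 19 in the 11 WT cells (median over all 13, 6). All 12 ciliated markers were found in at least 50% of the cells (Foxj1, which chose the cells, is 1 of them). The cilium tubulin-binding protein Tppp3 had 4 to 62 UMIs, Ccdc153 3 to 68, Tmem212 4 to 45, and the outer arm dynein Dnah5 2 to 32. Of the 24 motile cilia genes, 23 were detected, and the exception was Mcidas, which acts in cells that are still making their centrioles. Ccno of the same step was found in 2 of 13. The transcription factor Rfx3 of ciliated cells was found in 13 of 13 and Rfx2 in 9. Cyp2f2 (3 to 38 UMIs) and Cbr2 (14 to 110) were also found in all 13, while Scgb1a1 was found in 11 of 13 with 0 to 26 UMIs and a median of 11, above the 99th percentile of B cells (2 and 5 UMIs) and under the 10-fold limits.

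RFX factors bind a half-site of letters GTTGCC, so the promoters of the cilia genes are shown, from RefSeq on build GRCm38.p6, which is not the build of the files. Windows ran from 250 bases before to 50 after each start. GTTGCC on either strand was in the window of 10 of the 19 motile cilia genes that had one (52.6%), 1 of 9 surfactant genes, 0 of 15 xenobiotic enzymes and 14.1% of 27025 genes. The longer GTTGCCA, which overlaps it, was in 4 of the 19 and in 5.02% of all genes. The motif was chosen with the Foxj1 cells known, and a match is a description of letters and not a bound site. The 3 stretches of 60 bases printed here are of cilia genes found in 13, 13 and 10 of the 13 Foxj1 cells, 5′ to 3′ on the gene's strand, with the half-site or its reverse complement in capitals. They lie at chr9:44240498-44240557 (plus strand, Ccdc153), chr8:116504937-116504996 (plus strand, Dynlrb2) and chr11:72361885-72361944 (minus strand, Tekt1). The half-site begins 152 bases before the start in Ccdc153 and 51 in Dynlrb2. In Tekt1 its reverse complement begins 35 bases before the start, and the half-site itself follows further on in the stretch.
Ccdc153: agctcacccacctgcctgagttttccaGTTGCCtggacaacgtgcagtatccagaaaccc
Dynlrb2: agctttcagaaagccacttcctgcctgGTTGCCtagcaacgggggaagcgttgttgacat
Tekt1: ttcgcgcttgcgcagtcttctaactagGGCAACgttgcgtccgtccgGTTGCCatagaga

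The other 21 cells were above no 10-fold limit, and 10 of them were the shared barcodes described above. Among the rest, 3 cells under the WT label held 29, 34 and 31 UMIs of Upk3b with Lrrn4 and Nkain4, which mark mesothelium, the lining of the pleura. A further 3 carried the CD45 protein tag (830, 775 and 1062 UMIs). Also above no limit were a cell of 2604 gene UMIs with 14 of Sfn under the KO label and a cell of 6365 gene UMIs with 22 of F3 and 16 of Sprr1a under the WT label. Krt5, Krt14, Trp63 and Foxi1 had 0 UMIs in all members, which by the rule of 3 counts allows a share of up to 3.23% of cells with a UMI, and Mki67 of dividing cells had a UMI in 1. Besides the 3 genes that chose the classes, other markers of the same lists were found in each of the 3 main classes, while the rest were mixed and included cells with mesothelial or leukocyte markers.

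The antibody tags gave a second readout that the rule did not use. CD45, the protein that all leukocytes carry, had a median of 5 tag UMIs in the members of either library, against 654 (KO label) and 494 (WT label) in B cells. At least 100 tag UMIs were found on 5 members (830 KO label, and 321, 1243, 775 and 1062, WT label), all 5 with Ptprc RNA, and every other member had at most 27. Of these 5, the cell with 1243 also had 1443 UMIs of the CD11b tag, 274 of Ly-6G and 988 of Scgb1a1, and held 233 of the 247 S100a9 UMIs of the WT members. The cell with 321 was 1 of the 4 surfactant cells under the WT label and had 504 of CD11b and 74 of Ly-6G. One surfactant cell under the KO label had 5127 tag UMIs in all, including 154 of an isotype control, against a median of 33 in the other 4, with only 20 of CD45.

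**Figure D4:**
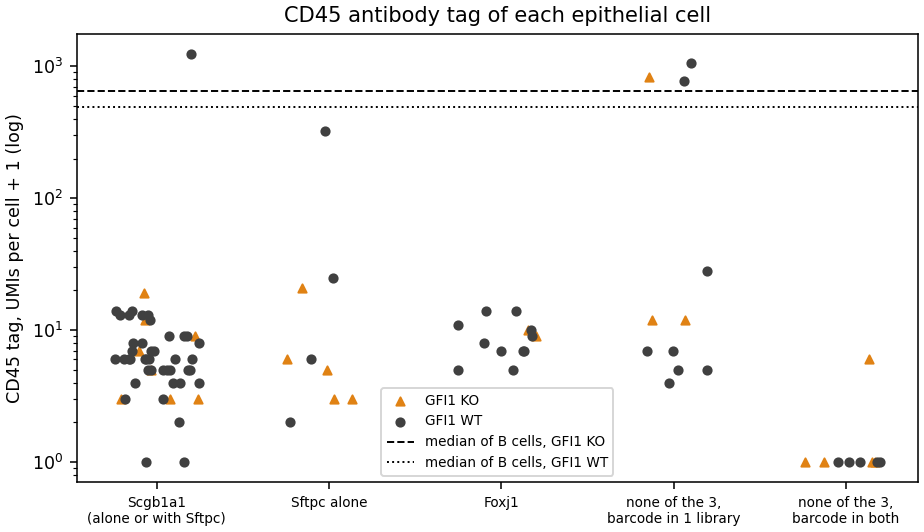
CD45 tag UMIs per cell plus 1 (log axis) for each epithelial cell, by class under the 10-fold limits, with the median of B cells of each library as lines. Orange triangles are the GFI1 KO label and black circles the GFI1 WT label. All but 5 of the 93 cells lie at 27 UMIs or below, far under the B cell medians of 654 and 494.

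Between the labels, surfactant genes were higher and several airway secretions lower under the KO label when all members were summed. Of 5768 genes with at least 30 UMIs, 225 (3.9%) were at least 2-fold higher and 608 (10.5%) at least 2-fold lower, with a median log2 ratio of −0.03. The sums mix classes of unequal size, and the part of class size in these differences was not tested. Counting error alone can also pass 2-fold. In counts simulated at the members' levels, 5.94% of unchanged genes passed it in either direction. Of 11 alveolar type 2 markers measured, 8 were at least 2-fold higher and 0 lower (median log2 ratio 2.26). Sftpc stood at 27730 CPM (27154 to 28314) in the KO members and at 3432 (3335 to 3531) in the WT members, a ratio of 8.08 (7.80 to 8.37). Lamp3 had a ratio of 6.90 and Slc34a2 of 5.58. After thinning every cell to 1500 UMIs the log2 ratio of Sftpc went from 3.01 to 0.88 and that of Slc34a2 from 2.48 to 0.66, both under 2-fold, and that of the summed type 2 list from 2.20 to 0.78. The rule was applied again to the thinned counts and left 6 and 27 members, so the cells compared changed as well. The lipid synthesis list had 5 of 13 higher (Scd1, Acoxl, Fabp5, Elovl1 and Fasn) and 0 lower. These are the genes of the surfactant cells, which were 5 of 23 members under the KO label and 4 of 70 under the WT label.

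Of 10 club cell markers measured by UMIs summed over members, 0 were at least 2-fold higher and 1 lower. The lower one was Bpifa1 (0.270, 0.257 to 0.284). The club cell genes Scgb1a1 and Cyp2f2 were at like levels by these sums, but not by other weightings. Scgb1a1 stood at 415427 CPM in the KO members and at 426081 in the WT members, with a ratio of 0.975 (0.969 to 0.981). Cyp2f2 had a ratio of 0.989 (0.933 to 1.05). For means over cells, which weight each cell equally, the log2 ratios were −0.72 for Scgb1a1 and −0.62 for Cyp2f2, and after thinning every cell to 1500 UMIs, which left 6 and 27 members, −2.28 and −0.81. The counts for the lists below stand beside 3.9% higher and 10.5% lower over all genes. Of 18 xenobiotic enzymes measured, 0 were higher and 2 lower (a share near that of all genes), Cyp2a5 (0.316, 0.187 to 0.504) and Aldh1a7 (0.354, 0.206 to 0.573). Of 20 motile cilia genes, Ccdc153 alone was over 2-fold higher (2.74) and 0 were lower. The direction of the summed cilia list turned with the weighting, with a log2 ratio of 0.43 for summed UMIs, −0.34 for means over cells and −0.91 after thinning. Of 14 host defence secretions, Lyz2 and Lcn2 were higher and Ltf, Bpifa1, Bpifb1, Chil4 and Slpi lower. Of 7 MHC class II genes, H2-Eb1 and Ctss were lower, and 131 of the 222 H2-Eb1 UMIs under the WT label lay in 1 cell. Among 13 receptors for cytokines, 6 could be measured and Ifngr2 was lower on 3 and 35 UMIs. The receptor gene Il17ra itself had 3 and 18 UMIs, too few to measure.

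A comparison within the 50 secretory cells does not depend on the sizes of the classes, and cells with Scgb3a1 were 6 of 8 and 29 of 42. Of 3722 genes with at least 30 UMIs in these cells, 98 (2.63%) were at least 2-fold higher under the KO label. At least 2-fold lower were 531 (14.3%), and the median log2 ratio was −0.20. How many genes pass 2-fold by counting error alone was not simulated for these cells. Scgb1a1 now had a ratio of 1.10 (1.09 to 1.11), Scgb3a1 of 1.17 (1.15 to 1.199), Scgb3a2 of 1.01 (0.986 to 1.04) and Tff2 of 1.12 (1.00 to 1.26). These ratios are of sums. By medians per cell, not corrected for depth (35204.5 gene UMIs under the KO label and 27361.5 under the WT label), Scgb3a2 had 1209 and 500 UMIs, Scgb3a1 1023 and 673.5, and Scgb1a1 16405 and 12983.

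Retnla, which encodes a secreted resistin-like protein induced by type 2 cytokines, ranked first among the genes lower under the KO label when genes were ordered by the upper bound of the ratio, although the ratio itself was lower for Clca1. It had 0 to 17 UMIs per cell in the 8 secretory cells under the KO label, 32 in all, and 0 to 2328 in the 42 under the WT label, 8790 in all. A UMI was found in 5 of the 8 and 28 of the 42 cells, so the ranges overlapped, but no cell under the KO label passed 17. The ratio of summed levels was 0.0178 (0.0121 to 0.0251), and in B cells the levels were 0.722 and 13.01 CPM. Retnla was lower outside the members too, with a UMI in 0.105% of the other filtered cells under the KO label and 2.13% under the WT label, and the members held 9.85% and 43.04% of the 325 and 20425 Retnla UMIs of their libraries. In the secretory cells the highest cell held 26.4% of all its UMIs. Clca1 had 0 to 2 UMIs in the 8 cells (4 in all) and 0 to 407 in the 42 (1402 in all), a ratio of 0.0139 (0.00379 to 0.0357). The chitinase-like gene Chil4 was at 0 in the 8 cells and had 81 UMIs in 9 of the 42, 46 of them in 1 cell. The interval of its ratio reached up to 0.227, and up to 0.528 without that cell. Muc5ac, a mucin of goblet cells, had 2 and 43 UMIs, a ratio of 0.227 (0.0266 to 0.872), whose interval held 1 without the highest cell (0.0378 to 1.29).

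Several antimicrobial secretions of the same cells were also lower in the sum. The iron-binding protein lactoferrin (Ltf) had 0 to 11 UMIs in the 8 cells and 0 to 327 in the 42, a ratio of 0.0979 (0.0680 to 0.137). Bpifa1 had 0 to 918 and 0 to 6779, a ratio of 0.305 (0.290 to 0.320). Sums rest on the highest cells here, since among the cells with Scgb3a1 (6 and 29) the median Bpifa1 count was 188 under the KO label and 179 under the WT label. The medians in the same cells were 5 and 13 UMIs for Ltf, 69.5 and 165 for Bpifb1, and 142 and 69 for Reg3g, which is higher under the KO label by this measure. Of 13 host defence secretions measured, 5 were at least 2-fold lower (Ltf, Chil4, Bpifa1, Bpifb1 and Lyz2) and 1 higher (Lcn2), beside 14.3% lower and 2.63% higher over all genes. Lyz2 had 442 of its 919 UMIs under the WT label in 1 cell, and without that cell its ratio went from 0.319 to 0.585, within 2-fold. Reg3g (0.743) and Muc5b (0.680) stayed within 2-fold. The counts per cell were uneven, since the highest cell held 23.3% of the Bpifa1 UMIs and 18.4% of those of Ltf.

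**Figure D5:**
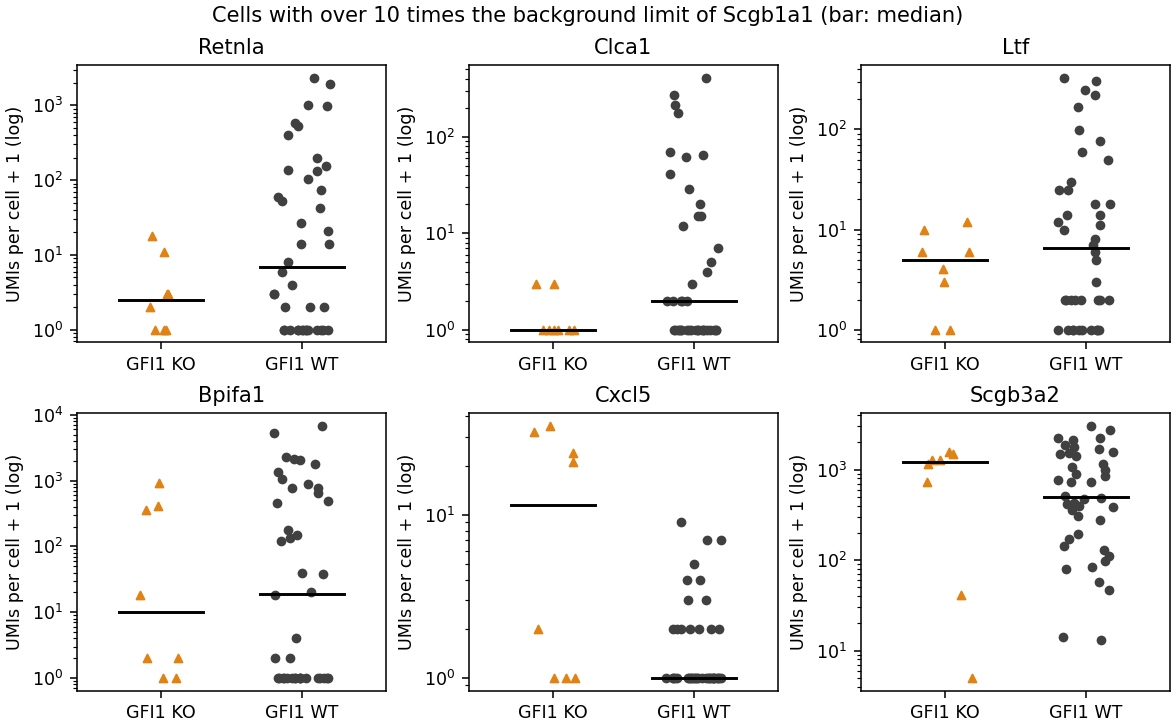
UMIs per cell plus 1 (log axes) of Retnla, Clca1, Ltf, Bpifa1, Cxcl5 and Scgb3a2 in the cells over the 10-fold Scgb1a1 limit, 8 labelled GFI1 KO (orange triangles) and 42 labelled GFI1 WT (black circles), with a bar at the median. Retnla stays at or below 17 UMIs and Clca1 at or below 2 under the KO label, whereas Cxcl5 reaches 34 there and 8 under the WT label.

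Some genes that airway epithelium induces on interleukin-17 were higher in the secretory cells under the KO label, and others lower. Of the 10 measured genes of this list, 4 were at least 2-fold higher (Cxcl5, Lcn2, Steap4 and Cebpd) and 4 lower (S100a8, S100a9, Cxcl2 and Nfkbiz), beside 2.63% and 14.3% over all genes. Cxcl5, a neutrophil attractant made by epithelium, had 23, 31, 34, 20 and 1 UMIs in 5 of the 8 cells and 0 in the other 3. In the 42 cells it had 0 to 8 UMIs and was found in 15, so 4 cells under the KO label lay above all cells under the WT label. Its ratio was 12.98 (8.99 to 19.1), or 10.5 without its highest cell, and it was at 0 in the B cells of both libraries. Lcn2, which withholds iron from bacteria, was found in 5 of 8 and 9 of 42 cells (ratio 7.17, 4.48 to 11.6). One cell held 31 of its 47 UMIs under the KO label, and without it the ratio was 3.001 (1.54 to 5.63). In B cells Lcn2 stood at 46.2 and 5.40 CPM, against 199 and 27.8 CPM in the secretory cells, so it was higher under the KO label outside the epithelium too. The metalloreductase gene Steap4 had 18 of its 26 UMIs under the KO label in 1 cell, and without it the ratio went from 5.08 to 1.76 (0.684 to 4.02), under 2-fold. The factor Cebpd was found in 7 of 8 and 20 of 42 (4.06, 3.003 to 5.48), and its ratio without the highest cell was 3.10. In the cells with Sftpc alone Cebpd went the other way, with 4 UMIs under the KO label and 35 under the WT label (0.106, 0.0273 to 0.296) and 79.5% of them in 1 cell, and in B cells it stood at 1.81 and 9.45 CPM.

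The lower genes of that list came mostly from 1 cell. For S100a9 and S100a8, 97.1% and 97.5% of the UMIs of the secretory cells lay in the 1 cell with the CD45, CD11b and Ly-6G tags, and the same cell held 74 of the 77 Cxcl2 and 36 of the 70 Nfkbiz UMIs under the WT label. Without it the ratio went from 0.190 to 4.803 (0.643 to 35.9) for Cxcl2 and from 0.488 to 0.989 for Nfkbiz. Over all members, not the secretory cells alone, the median log2 ratio of the list was −0.12 over 10 genes. Without the 5 members with the CD45 tag it was 0.70 over 8, so the genes compared changed as well. Sums over all members mix classes of unequal size. Lcn2 of this list stood at 1710 CPM in the cells with Sftpc alone, which were 5 of 23 members under the KO label and 4 of 70 under the WT label. The part of class size in the value of 0.70 was not tested. Some of the other largest differences over all members also rested on 1 cell. Upk3a had 51 UMIs in 1 cell under the KO label, and Gzma, a granule enzyme of killer lymphocytes, had 94.2% of its UMIs in 1 cell. Mgp, Rarres2 and Col3a1 were at 0 under the KO label and had 230, 221 and 127 UMIs under the WT label. These lay in 6, 5 and 4 cells, with 58.3%, 85.1% and 48.8% in the highest cell. Most UMIs of Mgp and Rarres2, but not of Col3a1, were thus in 1 cell. At resolution 1.2 the 3 genes were among the leading genes of a cluster of 3 cells, all under the WT label. Upk3b, named above for mesothelium, was among its leading genes too.

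Markers of other cell types were low in the members but not equal between labels. The neutrophil list summed to 6.28 CPM under the KO label and 333 under the WT label, led by S100a9 (0 and 247 UMIs), while 6 of its 8 genes were at 0 under the KO label. The fibroblast and mural list summed to 6.28 and 287 CPM, led by Dcn (2 and 167 UMIs, the latter in 4 cells). In B cells the neutrophil list summed to 642 and 835 CPM. The fibroblast and mural list summed to 0.722 and 149 CPM there, so it was lower under the KO label outside the members too. The leukocyte list summed to 195 and 271 CPM, led by Tyrobp (19 UMIs in 4 cells) and Cd52 (108 UMIs in 10 cells), against 4736 and 4795 in B cells. The B cell list summed to 12.6 and 13.8 CPM with Ms4a1 and Ighd at 0 in both, and the T and NK list to 62.8 and 5.08 CPM, led by 13 Nkg7 UMIs in 1 cell under the KO label. The part of these markers in the differences between labels was not tested beyond leaving out the cells with the CD45 tag.

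Clustering of the 93 cells with the settings of the study gave 4 clusters. The first (31 cells, 8 and 23 by label) was led by Sftpc together with Cd74 and H2-Aa and was left unnamed. The second (30 cells, 5 and 25) was led by Bpifa1, Reg3g and Clca1, and as it also took in the 3 cells with Upk3b it was left unnamed too. The third (21 cells, 8 and 13) had a median of 2604 gene UMIs and was led by Lgals2. The fourth (11 cells, 2 and 9) was led by Dnah12, Dnah6 and Cfap299 and was ciliated-like, with 12 of 12 ciliated markers. Since clusters were made from the genes that describe them, these leading genes are a description.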

How the data were processed

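The deposited files held whole-number UMI counts of 33696 genes and 18 antibody tags per cell, made by the authors with Cell Ranger 9.0.1 on GRCm39 (mm39), per the submitters' processing notes. Cells past the filters numbered 10495 and 19342. Levels are UMIs summed over cells per 1000000 (CPM), without ribosomal, mitochondrial and Gm- genes (9538 genes, 11.1% and 9.91% of the members' UMIs). Intervals are Clopper-Pearson for shares, exact Poisson for levels and exact conditional binomial for ratios at 95%, and square-and-add for differences of shares. Zeros were set to a floor of 3 UMIs per library's sum. Genes needed 30 UMIs over both libraries, and 2-fold was the limit of size. B cells had a Cd79a UMI and none of the 7 epithelial genes or of Cd3e, Csf1r, Mertk and Ptprb.

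Doublets were called per library with Scrublet in scanpy 1.11.5 (3.30% and 5.92% of cells, 1 member) and kept. Clustering used 2000 variable genes, 50 components, 15 neighbours and Leiden resolution 0.8. Python 3.11.15 with numpy 2.4.6 and scipy 1.17.1 was used, and the counting of ratios was tested on simulated data. Named genes were those of the rule, Gfi1 and Gfi1b, the most abundant or over 2-fold members of fixed lists, and the 10 highest and 10 lowest ratios, ranked by the interval bound nearer to 1, over all members and over cells with Sftpc alone. Exceptions, named after their values were seen, are the largest ratios within the secretory cells, the genes of the split by Scgb3a1, the intestinal genes and those of single cells. The members, lists and rules were chosen with earlier results of these data known. Alternatives changed the number of rule genes, leukocyte RNA, doublets, depth, the total, cell weights, filters, free RNA and resolution. Some markers and the results that need them are not reported here.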

Additional observations from a re-analysis of the deposited data

How the results depend on the processing

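The differences in member share and in the Scgb1a1, Sftpc and Foxj1 classes kept their direction and stayed within the interval of the reported value under the alternatives run, but after thinning the intervals for Scgb1a1 (-60.6 to 16.3 points) and Sftpc (-11.9 to 67.5) held 0, beside the cases given above. The count of genes at least 2-fold higher under the KO label (225) and lower (608) was 45 and 115 with at least 100 UMIs, 17 and 21 after thinning every cell to 1500 UMIs (87 genes left), 77 and 124 without genes whose B cell level was over 10%, 922 and 1176 for means over cells, and 4172 and 1352 with no filter. Without a filter, genes at 0 UMIs under the KO label and few under the WT label counted as higher through the floor for zeros. The counts of 4172 and 1352 therefore give no direction. Higher genes were 98 in the Scgb1a1 cells only. Thinning left 6 and 27 of the 23 and 70 members and gave log2 ratios of -1.34 for Foxj1 (0.43 as reported, interval -0.31 to 1.12), -2.28 for Scgb1a1, 0.88 for Sftpc, 0.78 for the alveolar type 2 list (2.20 as reported, summed UMIs), -2.78 for host defence (-0.29) and -0.91 for motile cilia (0.43), so that Foxj1 and motile cilia changed direction there and in means over cells. Means over cells gave -0.82 for Foxj1, -0.72 for Scgb1a1, 2.85 for Sftpc, 2.46, -0.57 and -0.34 for the same lists, and -0.15 for the interleukin-17 list (0.37). At least 4 of the 7 genes gave 0.0316 for Scgb1a1, 2.89 for Sftpc, 2.11 for alveolar type 2 and -0.38 for host defence. Without members with a Ptprc UMI, Scgb1a1 was at -0.0882, Sftpc at 3.32, alveolar type 2 at 2.32 and interleukin-17 at 0.92. Without the CD45 tag cells the values were -0.0717, 3.36, 2.36 and 0.89, with host defence at -0.32. All genes in the total put Scgb1a1 at -0.0558, and Scgb1a1 left out of it put host defence at -0.32. In the Scgb1a1 cells only, interleukin-17 was at 0.54 and motile cilia at 0.11, and alveolar type 2 (-0.24), lipid synthesis (-0.27) and surfactant (-0.23) reversed, as these cells leave out the cells with Sftpc alone. Without the highest cell, Cxcl2 in the secretory cells reversed to 2.26 and Osmr, which is in no list, to -0.11. Resolution 1.2 gave 8 clusters. The alternatives without shared barcodes, without the CD45 tag cells, without Scgb1a1 in the total, with the Scgb1a1 cells only and without a gene's highest cell were chosen after seeing the data. Named clusters in place of classes could be given for the Foxj1 class only. No paired analysis was possible because each label has 1 library, and no library could be left out for the same reason. Depth also decided membership, since thinning removed members.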
